A study of Mus musculus with 8 samples.

Results

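Genes of cholesterol and fatty acid synthesis, and of their control by the sterol regulatory element binding proteins (SREBPs), were examined in mouse natural killer (NK) cells kept in interleukin-2 (IL-2). The 37 genes were chosen by name from the pathway. They comprised 8 enzymes of the mevalonate and isoprenoid pathway, 11 enzymes from squalene to cholesterol, 6 genes of SREBP control and sterol carriage, 7 genes of acetyl-CoA supply, fatty acid synthesis and activation, and 5 receptors and targets of the liver X receptors (LXRs). Fatty acid desaturases and elongases were not part of the list. The array named 22180 genes by a transcript cluster (a probe set for one transcribed locus) of their own, and 33 of the 37 were among them. A gene was tested if its cluster reached the array median on at least 2 arrays, which held for 32 listed genes among 13998 genes in all.

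The 4 groups had 2 biological replicates each, hybridised to 8 Affymetrix Mouse Gene 2.0 ST arrays. Day 0 cells were freshly isolated and called naïve. Day 4 cells had been kept for 4 days with IL-2 at 1000 IU/mL, the acute state. Day 9 cells treated with KU55933 had IL-2 for 9 days, with IL-2 added again on day 4, and received 7.5 µM KU55933, an inhibitor of the DNA damage kinase ATM, on day 4. Day 9 cells without KU55933 had the same 9 days of IL-2, the chronic state, and the labels do not say whether these arrays came from cells given vehicle. All cultures began from mouse bone marrow from which CD90-positive cells were removed to deplete T cells, and activated NK cells were collected as the adherent cells. The strain, age and sex of the mice are not given in the labels, nor is it stated whether replicates came from different mice, so p-values measure the spread between these arrays.

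Cholesterol is built from acetyl-CoA through mevalonate, farnesyl diphosphate, squalene and lanosterol. SREBPs are transcription factors held in the endoplasmic reticulum by Scap and the Insig proteins while sterol is plentiful. When sterol falls, Scap escorts them to the Golgi, where they are cleaved, and the released part activates the genes of sterol and fatty acid synthesis. LXRs sense oxidised sterols and activate genes that export cholesterol or lower its uptake. In mouse NK cells stimulated by cytokine, SREBP activity is known to support the metabolic response.

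Promoters of the listed genes were read as the 250 bases before each annotated start in RefSeq (build GRCm38.p6), where 32 of the 37 genes matched, with 41 windows. The classical sterol element, searched as TCACNCCAC on both strands, lay in 1 of the 41 windows (2.44%), that of Hmgcs1, against 1.05% of 32851 windows of the same length. Boxes of NF-Y and Sp1, factors known to act beside SREBPs, were common. The CCAAT box lay in 25 of the 41 windows (61.0%) against 33.8% of all windows, and the GC box GGGCGG lay in 27 (65.9%) against 32.7%. The E-box CACGTG lay in 6 (14.6%) against 6.02%. Matches were counted on both strands, and 1 pair overlapped, in Fasn. The Hmgcs1 stretch below is shown because it is the one window with the sterol element. Those of Mvk, with 5 CCAAT matches, Hsd17b7, with 3 CCAAT matches and an E-box, and Mylip, a gene that fell at day 4 and has 3 CCAAT matches, were chosen after their values were seen. Capitals mark the sterol element, the CCAAT box, the E-box and the GC box, also where they lie reversed on the other strand. The stretches run 5′ to 3′ on the strand of the gene, at chr13:119690169-119690267 on the plus strand for Hmgcs1, chr5:114444086-114444268 on the plus strand for Mvk, chr1:169969206-169969380 on the minus strand for Hsd17b7 and chr13:45389542-45389690 on the plus strand for Mylip.
Hmgcs1: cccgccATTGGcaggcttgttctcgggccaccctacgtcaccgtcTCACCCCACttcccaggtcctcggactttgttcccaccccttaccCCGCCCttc
Mvk: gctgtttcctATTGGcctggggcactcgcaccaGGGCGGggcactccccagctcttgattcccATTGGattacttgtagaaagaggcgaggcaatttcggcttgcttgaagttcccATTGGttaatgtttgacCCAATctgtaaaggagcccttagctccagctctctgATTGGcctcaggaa
Hsd17b7: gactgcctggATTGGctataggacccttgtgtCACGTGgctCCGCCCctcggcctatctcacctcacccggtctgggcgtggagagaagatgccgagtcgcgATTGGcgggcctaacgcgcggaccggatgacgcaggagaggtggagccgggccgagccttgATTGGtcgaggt
Mylip: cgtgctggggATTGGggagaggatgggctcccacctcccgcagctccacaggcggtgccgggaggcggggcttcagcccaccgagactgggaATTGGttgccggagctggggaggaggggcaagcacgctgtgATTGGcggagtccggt
The Hmgcs1 stretch covers bases 182 to 84 before the start, with its sterol element at bases 137 to 129. Among tested genes with a promoter in the table, counted by gene over any of its windows, CCAAT lay in 19 of the 23 that rose at day 4. It lay in 1 of the 2 that fell and in 1 of the 2 not called. The GC box lay in 18, 2 and 1 of these genes, and the E-box in 5, 1 and 0. With 2 genes that fell, these counts do not tell risers from fallers. A match describes these letters and is not a measured binding site.

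Signals are log2 values after robust multi-array averaging (RMA), and group differences are log2 differences with their standard error (SE) from a linear model over all 8 arrays (limma). A gene was called where its p-value, adjusted by Benjamini-Hochberg over the 13998 genes, was below 0.05. Array medians lay between 3.66 and 3.92. The 2 arrays of a group correlated at 0.976 to 0.995 over the tested genes, and the median SD between them was 0.161 at day 0, 0.0789 at day 4, 0.0874 at day 9 with KU55933 and 0.0892 at day 9. All 12 NK cell markers examined, Ncr1, Klrb1c and Prf1 among them, lay above the array median in every group. Centring, in which the median of the tested genes is taken off every array, shifted the day 4 over day 0 differences by -0.35, day 9 over day 0 by -0.23, KU55933 over day 0 by -0.30, day 9 over day 4 by 0.12, KU55933 over day 9 by -0.07 and KU55933 over day 4 by 0.05.

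After 4 days of IL-2 the sterol pathway stood far above its level in fresh cells. All 17 tested enzymes from Hmgcs1 to Dhcr7 rose, with a median log2 difference of 3.63 and a range of 0.59 to 4.73, against a median of 0.08 over all tested genes. Of the 32 tested genes on the whole list 27 rose, 3 fell and 2 were not called. Over all tested genes 59.9% were called, 37.5% higher and 22.4% lower, so a call alone was common in this comparison. Of the genes called, 62.6% were higher as deposited and 40.4% after centring, under which 26 listed genes were higher and 5 lower.

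Among the mevalonate and isoprenoid enzymes all 6 tested genes rose. Hmgcs1, which makes HMG-CoA at the head of the pathway, had log2 signals of 11.07 and 11.03 at day 4, against 6.75 and 6.66 at day 0. The difference was 4.35 ± 0.11 (SE), or 20.4-fold (limma adjusted p = 6.17e-07). Fdps, which makes farnesyl diphosphate, had 9.91 on both day 4 arrays, against 6.16 and 5.73 at day 0, and rose by 3.97 ± 0.15 (adjusted p = 1.24e-06). In both genes the lower day 4 array lay over 3 log2 units above the higher day 0 array. Mvk, the mevalonate kinase, had 7.0 and 6.70 at day 4, against 4.48 and 4.45 at day 0, a log2 difference of 2.38 ± 0.13. Pmvk, the next kinase, differed by 1.74 ± 0.12, Mvd, the decarboxylase, by 2.27 ± 0.16, and Ggps1, which makes the geranylgeranyl donor for protein prenylation, by 1.73 ± 0.11. No day 4 array of these 6 genes overlapped a day 0 array, a separation that was not counted over all tested genes.

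All 11 enzymes from squalene to cholesterol rose, with a median log2 difference of 3.74. Cyp51, the lanosterol demethylase, had 9.70 and 9.66 at day 4, against 4.98 and 4.92 at day 0. Its difference of 4.73 ± 0.11, or 26.5-fold, was the largest of the 32 tested genes (adjusted p = 6.17e-07). Hsd17b7, a sterol ketoreductase, had 7.52 and 7.58 at day 4, against 3.92 and 3.91 at day 0, and rose by 3.63 ± 0.10. The day 0 signals of Hsd17b7 were close to the array median, and both day 4 arrays were far from it. Sc5d, the sterol desaturase, had 10.02 and 9.97 at day 4, against 5.83 and 6.12 at day 0, and differed by 4.02 ± 0.13. Sqle, the squalene epoxidase, rose by 3.96 ± 0.12 and Msmo1, the methylsterol oxidase, by 3.91 ± 0.17. Fdft1, the squalene synthase that commits the pathway to sterol, rose by 3.88 ± 0.20 and Lss, the lanosterol synthase, by 3.74 ± 0.13. Smaller rises were those of Nsdhl, which removes a carboxyl group during demethylation, at 2.77 ± 0.13, Ebp, the sterol isomerase, at 2.36 ± 0.18, and Dhcr7, the dehydrocholesterol reductase, at 2.36 ± 0.13. Tm7sf2, a sterol reductase, had 5.93 and 6.04 at day 4, against 5.56 and 5.23 at day 0. Its difference of 0.59 ± 0.13 (adjusted p = 0.00597) was 0.24 after centring (adjusted p = 0.18) and 0.28 after quantile normalization (adjusted p = 0.209), where it was not called.

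**Figure D1:**
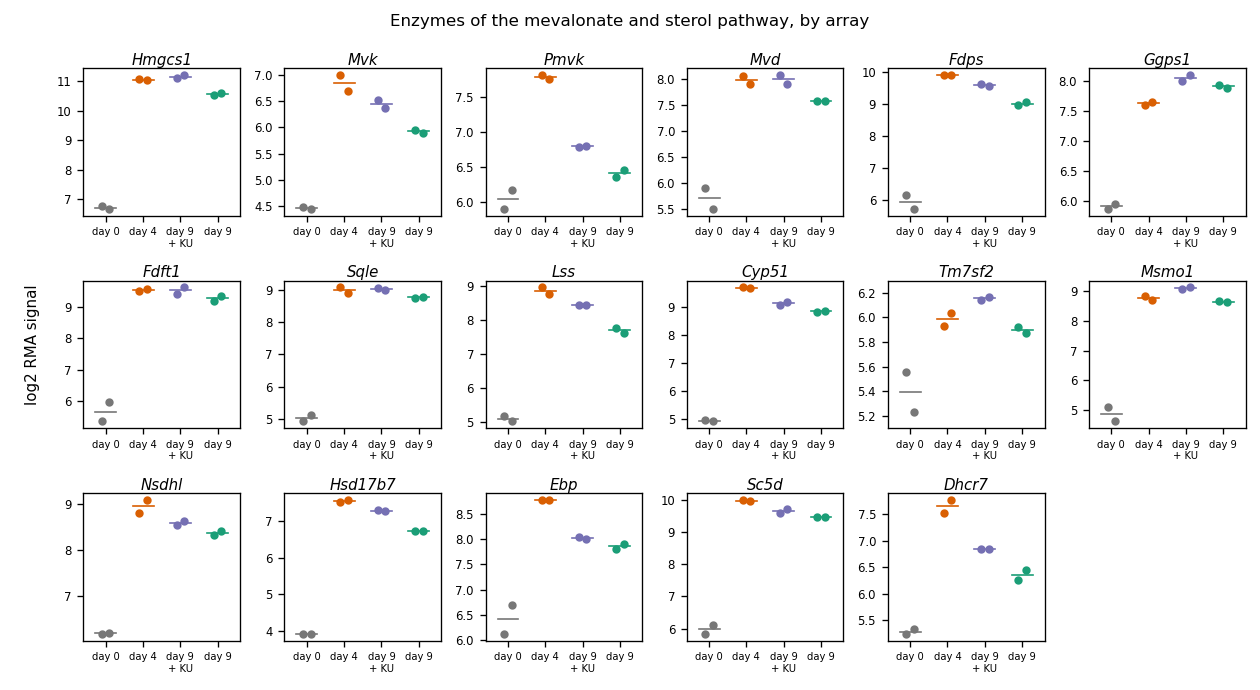
Log2 RMA signal (vertical axis, its own range in each panel) of the 17 tested enzymes from Hmgcs1 to Dhcr7 on the 8 arrays, with 2 points per group and a line at their mean, in the order day 0, day 4, day 9 with KU55933 and day 9. In every panel both day 0 points lie below all points of the activated groups, as for Cyp51, with 9.70 and 9.66 at day 4 against 4.98 and 4.92 at day 0.

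The 6 genes of SREBP control and sterol carriage also rose, with a median of 1.34. Srebf2, which encodes the SREBP that acts mainly on sterol genes, had 9.21 and 9.10 at day 4, against 7.20 and 7.70 at day 0, and rose by 1.71 ± 0.16 (adjusted p = 5.73e-05). Srebf1, whose products act more on fatty acid genes, had 7.31 and 7.30 at day 4, against 6.10 and 5.79 at day 0, a log2 difference of 1.36 ± 0.14. Scap, the SREBP escort, differed by 1.27 ± 0.11 in the brighter of its 2 clusters. The retention proteins rose too, Insig1 by 1.33 ± 0.12 with 9.51 and 9.47 at day 4 against 8.22 and 8.10 at day 0, and Insig2 by 1.10 ± 0.18. Stard4, which carries sterol between membranes, had 8.09 and 8.11 at day 4, against 4.85 and 4.98 at day 0, the largest difference of these 6 at 3.18 ± 0.12. For each of the 6 the day 4 arrays lay above both day 0 arrays, which was not counted over all tested genes.

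Of the 5 tested genes of acetyl-CoA supply and fatty acid synthesis 4 rose. Acly, which splits citrate into acetyl-CoA in the cytosol, had 10 and 9.87 at day 4, against 8.68 and 8.59 at day 0, a log2 difference of 1.30 ± 0.11. Acaca, which makes malonyl-CoA, differed by 1.85 ± 0.13. Fasn, the fatty acid synthase, had 9.57 and 9.33 at day 4, against 7.88 and 8.07 at day 0, and rose by 1.47 ± 0.15 (adjusted p = 6.95e-05). Aacs, which activates acetoacetate for lipid synthesis, rose by 1.91 ± 0.14. Acss2, which makes acetyl-CoA from acetate, stood apart from these 4, with 6.74 and 6.44 at day 4, against 7.18 and 6.49 at day 0, overlapping arrays and a difference of -0.25 ± 0.22 (adjusted p = 0.367). It was called lower after centring (-0.59, adjusted p = 0.04998), after quantile normalization and without day 0 replicate 2 (-0.59, adjusted p = 0.0187).

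Of the 4 tested LXR genes 3 fell at day 4 and none rose. Mylip, a ubiquitin ligase that marks lipoprotein receptors for degradation, had 7.0 and 7.02 at day 4, against 9.20 and 9.19 at day 0, and fell by 2.18 ± 0.10 on the log2 scale (adjusted p = 2.24e-06). Abca1, which exports cholesterol to lipid-poor apolipoprotein, had 4.88 and 4.82 at day 4, against 6.84 and 7.11 at day 0, a difference of -2.12 ± 0.13. Abcg1, which exports it to lipoprotein particles, had 5.71 and 5.65 at day 4, against 7.21 and 7.23 at day 0, a difference of -1.54 ± 0.11. In all 3 genes both day 4 arrays lay more than 1 log2 unit below both day 0 arrays. Nr1h3, which encodes LXR-alpha, had 3.66 and 4.13 at day 4, one of them under the array median, against 4.62 and 4.19 at day 0. Its difference of -0.51 ± 0.20 was not called (adjusted p = 0.0618), and it was called lower after centring (-0.85) and without day 0 replicate 2 (-0.72, adjusted p = 0.0263) or day 4 replicate 2 (-0.74, adjusted p = 0.0294).

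The cells also differed in what else they expressed. The 17 measured markers of dividing cells all rose at day 4, and their summed linear signal was 12487 to 12988 at day 4, against 2480 to 2747 at day 0. Summed macrophage and monocyte markers (15 of 16 listed) were 1800 to 2275 at day 4, against 2761 to 3007 at day 0, with 6 of 14 tested markers higher and 6 lower. Neutrophil markers (12 of 12) summed to 881 to 895 at day 4, against 229 to 270 at day 0, while all 7 tested B cell markers and all 5 tested megakaryocyte markers fell. NK markers summed to 24639 to 25783 at day 4, against 12356 to 13461 at day 0, with 6 of 12 higher and 4 lower. Gzmb and Prf1, genes of the killing granules, rose by 2.97 and 2.35, while Itga2 and Tbx21 differed by -2.19 and -0.93. The sum is thus not a measure of NK cell content. The part of these shifts in the lipid gene results was not tested, and in bulk RNA fewer cells of a type and less RNA per cell cannot be told apart.

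By day 9 most of the sterol genes still stood above fresh cells, and many had come down from day 4. Against day 0, 26 listed genes were higher, 3 lower and 3 not called, including all 17 sterol enzymes higher by 0.37 to 3.89 with a median of 2.58. Over all tested genes 58.0% were called against day 0, 36.0% higher and 22.0% lower. Against day 4, 18 listed genes were lower, 3 higher and 11 not called, with a median of -0.52 against -0.01 over all tested genes. The background there was 27.8%, with 15.6% lower and 12.2% higher. Both comparisons share the day 9 arrays. Of genes called against day 0, 62.0% were higher as deposited and 46.8% after centring, and against day 4 the shares were 43.9% and 58.9%. After centring, 5 listed genes were higher and 17 lower against day 4.

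Along the sterol enzymes 11 of 17 were lower at day 9 than at day 4 and none was higher. Pmvk had 6.36 and 6.46 at day 9, against 7.81 and 7.75 at day 4, a log2 difference of -1.36 ± 0.12 (adjusted p = 0.000163), which left it 0.37 ± 0.12 above day 0. Dhcr7 had 6.25 and 6.44 at day 9, against 7.52 and 7.77 at day 4, a difference of -1.30 ± 0.13 (adjusted p = 0.000268). Lss had 7.76 and 7.61 at day 9, against 8.95 and 8.74 at day 4, and was 2.24-fold lower. All 3 genes had day 9 arrays more than 0.9 log2 units below day 4. Mvk differed by -0.92 ± 0.13, Ebp by -0.92 ± 0.18, Fdps by -0.89 ± 0.15, Cyp51 by -0.83 ± 0.11 and Hsd17b7 by -0.82 ± 0.10. Differences for Nsdhl, Sc5d and Hmgcs1 were -0.59 ± 0.13, -0.51 ± 0.13 and -0.49 ± 0.11. Leaving out any one day 4 or day 9 array ended the calls of Sc5d (adjusted p = 0.084 to 0.123) and Hmgcs1 (0.0533 to 0.0866). The call of Nsdhl ended without day 4 replicate 2 (adjusted p = 0.0915) or day 9 replicate 1 (0.0757), and that of Ebp without day 4 replicate 2 (0.0515). Hmgcs1 had 10.55 and 10.59 at day 9, against 11.07 and 11.03 at day 4. It remained 14.5-fold above day 0.

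For 6 sterol enzymes the day 9 and day 4 difference was not called. Sqle had 8.73 and 8.78 at day 9, against 9.07 and 8.90 at day 4, with a 95% interval of -0.52 to 0.06. Msmo1 had 8.67 and 8.63 at day 9, against 8.85 and 8.71 at day 4, with an interval of -0.52 to 0.25. The intervals were -0.72 to 0.20 for Fdft1, -0.76 to -0.04 for Mvd, -0.40 to 0.22 for Tm7sf2 and 0.03 to 0.53 for Ggps1. Those of Mvd and Ggps1 leave out 0 before adjustment over all genes, and neither passed it (adjusted p = 0.098 for Mvd and 0.0925 for Ggps1). Mvd was called lower without either day 0 array (adjusted p = 0.0273), and Ggps1 was called higher after centring, at 0.40. Against day 0 the same 6 genes were higher at day 9 by 3.73 ± 0.12 for Sqle, 3.78 ± 0.17 for Msmo1, 3.63 ± 0.20 for Fdft1, 1.87 ± 0.16 for Mvd, 0.50 ± 0.13 for Tm7sf2 and 2.01 ± 0.11 for Ggps1. The calls of Tm7sf2 and Pmvk against day 0 were lost after centring, at 0.27 (adjusted p = 0.152) and 0.15 (adjusted p = 0.279). That of Tm7sf2 was also lost without day 9 replicate 1 (adjusted p = 0.0653), and that of Pmvk without any one array other than day 0 replicate 2 (adjusted p = 0.0552 to 0.145).

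Of the 6 control genes 3 were lower at day 9 than at day 4. Scap was among them by its brighter cluster. With the mean of its 2 clusters it differed from day 4 by -0.24 and was not called (adjusted p = 0.307). Against day 0 that mean gave 0.39, not called (adjusted p = 0.0597), where the brighter cluster was called at 0.93. Insig1 had 8.25 and 8.42 at day 9, against 9.51 and 9.47 at day 4, a log2 difference of -1.15 ± 0.12 (adjusted p = 0.000274). Its difference from day 0 was 0.17 ± 0.12 and was not called (adjusted p = 0.235). Insig2 had 6.04 and 5.67 at day 9, against 5.69 and 5.80 at day 4, with overlapping arrays, and stayed 1.21 ± 0.18 above day 0. Srebf2, with 9.18 and 9.23 at day 9 against 9.21 and 9.10 at day 4, differed by 0.05 ± 0.16, and Srebf1 by -0.12 ± 0.14. Neither was called, with intervals of -0.33 to 0.43 and -0.45 to 0.20. Stard4 was lower than at day 4 by a difference of -0.52 ± 0.12, not called without either day 4 array or day 9 replicate 2 (adjusted p = 0.0726 to 0.0826). Scap, at -0.34 ± 0.11 (adjusted p = 0.0484), was not called after centring (adjusted p = 0.146) or without any one array of day 4, day 9 or KU55933 (adjusted p = 0.0767 to 0.235).

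Of the 5 fatty acid genes 4 were lower at day 9 than at day 4. Fasn had 7.77 and 7.98 at day 9, against 9.57 and 9.33 at day 4, a log2 difference of -1.57 ± 0.15 (adjusted p = 0.000188), the most negative of the 32 tested genes. Its day 9 arrays overlapped those of day 0 (7.88 and 8.07), with a difference of -0.10 ± 0.15 and an interval of -0.44 to 0.24, though it was called lower than day 0 after quantile normalization, at -0.56. Aacs had 6.30 and 6.65 at day 9, against 8.0 and 7.90 at day 4, a difference of -1.47 ± 0.14. Acaca was 2.04-fold lower and Acly 1.69-fold lower than at day 4. Against day 0 they were higher by 0.44 ± 0.14 for Aacs, 0.82 ± 0.13 for Acaca and 0.54 ± 0.11 for Acly. The call of Aacs was lost after centring (0.21), without day 0 replicate 1 (adjusted p = 0.0837) and without day 9 replicate 2 (adjusted p = 0.18), and that of Acly after quantile normalization (0.09). Acss2 was again the exception, with 7.17 and 7.38 at day 9, against 6.74 and 6.44 at day 4, a difference of 0.69 ± 0.22 that was not called (adjusted p = 0.0548). Without either day 0 array it was called (adjusted p = 0.0089).

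The 3 LXR targets were higher at day 9 than at day 4. Abcg1 had 7.89 and 8.0 at day 9, against 5.71 and 5.65 at day 4, a 4.81-fold difference (adjusted p = 5.05e-06). It was the one listed gene called lower than day 0 at day 4 and higher than day 0 at day 9, there by 0.72 ± 0.11, a call lost after quantile normalization (0.26, adjusted p = 0.055). Mylip had 8.19 and 8.16 at day 9, against 7.0 and 7.02 at day 4, a log2 difference of 1.16 ± 0.10, and was still 2.03-fold below day 0. Abca1 had 5.26 and 5.48 at day 9, against 4.88 and 4.82 at day 4, a difference of 0.52 ± 0.13 that was not called without either day 4 array or day 9 replicate 2 (adjusted p = 0.0994 to 0.135). It was 3.05-fold below day 0. Nr1h3 had 3.14 and 3.41 at day 9, both under the array median, against 4.62 and 4.19 at day 0, and was at least 1.62-fold lower (adjusted p = 0.00182).

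**Figure D2:**
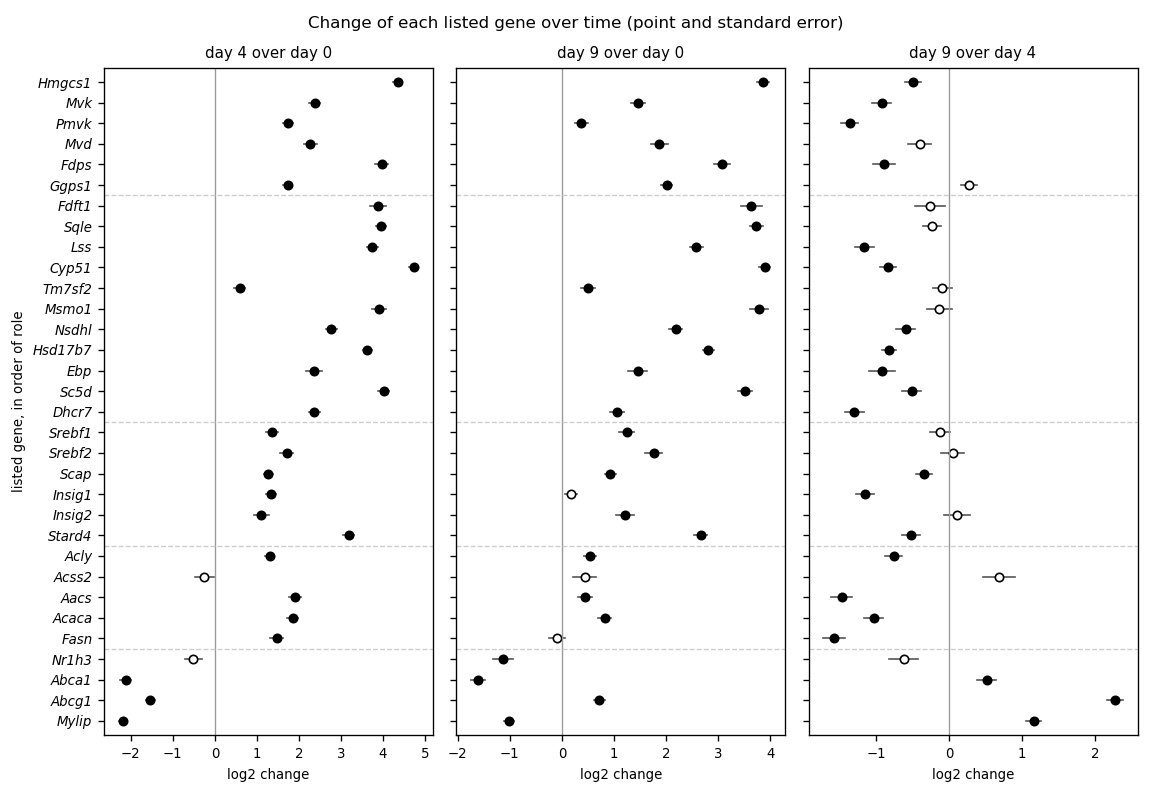
Log2 difference of the 32 tested genes (horizontal axes, points, with SE bars) at day 4 over day 0, day 9 over day 0 and day 9 over day 4, with genes running down in order of role and dashed lines between roles. Filled points are called and open points are not. Sterol enzymes lie right of 0 in the first 2 panels, and 18 genes are called left of 0 in the last, with Fasn at -1.57 and Abcg1 at 2.27 as its ends.

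Markers of dividing cells moved in the same interval. All 17 were lower at day 9 than at day 4, with a median of -3.70, and they summed to 1896 to 1942 at day 9, against 12487 to 12988 at day 4. Macrophage and monocyte markers summed to 380 to 409 at day 9, against 1800 to 2275 at day 4. Of 14 tested, 13 were lower and 1, Cd14, was higher, at 0.75. Of the 15 measured, Adgre1, Mrc1, C1qc, Cd163 and Ms4a7 were under the array median at day 9, Cd163 at day 4 as well. Neutrophil markers summed to 155 to 162 at day 9, against 881 to 895 at day 4. NK markers summed to 23862 to 24223 at day 9, against 24639 to 25783 at day 4. Their part in the changes of the lipid genes was not tested.

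KU55933 cells were compared with untreated cells of the same day, the comparison in which the inhibitor is the labelled difference. Of the 32 tested genes 1 was called higher with KU55933, the lanosterol synthase Lss, and none lower. Over all tested genes 0.986% were called, 0.750% higher and 0.236% lower. Of those called, 76.1% were higher as deposited and 58.7% after centring, under which no listed gene was called. Across the list 31 of 32 differences were positive, with a median of 0.33, against 53.5% positive and a median of 0.02 over all tested genes. After centring and after quantile normalization 31 were positive as well, with medians of 0.26 and 0.29. Genes of one pathway on the same arrays are not independent, and no test of this count was made.

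Lss had 8.43 and 8.42 in KU55933 cells, against 7.76 and 7.61 in untreated day 9 cells. The log2 difference was 0.74 ± 0.13, or 1.67-fold, with a 95% interval of 0.44 to 1.03 and an adjusted p of 0.0483. The call was lost after centring (adjusted p = 0.0883), after quantile normalization, with no filter on dim genes, with the replicate number as a block (adjusted p = 0.0659) and without any one array of day 4, day 9 or KU55933 (adjusted p = 0.108 to 0.303). Hmgcs1 had 11.10 and 11.22 in KU55933 cells, against 10.55 and 10.59 untreated, a difference of 0.59 ± 0.11 with an interval of 0.34 to 0.84. Hsd17b7 had 7.29 and 7.27 in KU55933 cells, against 6.74 and 6.72 untreated, a difference of 0.55 ± 0.10. Both missed the threshold at an adjusted p of 0.0574, and both were called without either day 0 array (adjusted p = 0.0381 for Hmgcs1 and 0.0371 for Hsd17b7). In these 3 genes both KU55933 arrays lay at least 0.5 log2 units above both untreated arrays.

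Other sterol enzymes were positive with adjusted p-values of 0.158 and above. Fdps had 9.63 and 9.56 in KU55933 cells, against 8.97 and 9.06 untreated, a difference of 0.58 ± 0.15 that was called without either day 0 array (adjusted p = 0.0371). Mvk differed by 0.51 ± 0.13, Dhcr7 by 0.49 ± 0.13, Msmo1 by 0.46 ± 0.17, Mvd by 0.42 ± 0.16 and Pmvk by 0.38 ± 0.12. For Cyp51 the difference was 0.28 with an interval of 0.03 to 0.53, and for Sqle 0.26 with an interval of -0.03 to 0.55. Nsdhl, Tm7sf2, Fdft1, Sc5d, Ebp and Ggps1 lay between 0.15 and 0.26, with intervals that include 0.

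Among fatty acid genes Aacs had 7.13 and 7.02 in KU55933 cells, against 6.30 and 6.65 untreated, a difference of 0.61 ± 0.14 (adjusted p = 0.118). Fasn had 8.55 and 8.34 in KU55933 cells, against 7.77 and 7.98 untreated, a difference of 0.57 ± 0.15 (adjusted p = 0.156). Neither difference was called. Acss2, Acaca and Acly differed by 0.38 ± 0.22, 0.34 ± 0.13 and 0.23 ± 0.11. In the control group Srebf1 had 7.73 and 7.57 in KU55933 cells, against 7.11 and 7.25 untreated, a difference of 0.47 ± 0.14. Stard4 differed by 0.46 ± 0.12 and Insig1 by 0.43 ± 0.12, while Srebf2 and Scap each differed by 0.16. Insig2 was the one tested gene below 0, at -0.15 with an interval of -0.56 to 0.26 and overlapping arrays, and lay above 0 without day 9 replicate 1. Abcg1 and Mylip each differed by 0.32 and Abca1 by 0.23, and Nr1h3 was under the array median on all 4 arrays compared.

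**Figure D3:**
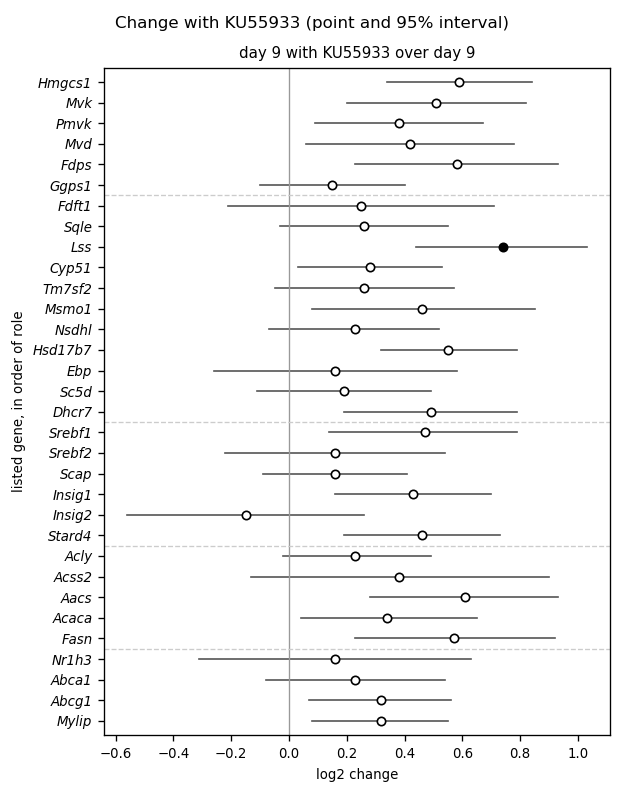
Log2 difference of the 32 tested genes between day 9 cells with KU55933 and day 9 cells without it (horizontal axis, points, with 95% interval bars), with genes running down in order of role and dashed lines between roles. Lss, at 0.74, is the filled point and the one called, the open points are not called, and Insig2 at -0.15 is the point left of 0.

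Markers of dividing cells stood higher in the KU55933 cells as well, with 15 of 17 positive, a median of 0.51 and sums of 2575 to 2593 with KU55933, against 1896 to 1942 without it. Top2a, Kif11 and Mcm5 were called. Macrophage and monocyte markers summed to 374 to 379 with KU55933, against 380 to 409 without it, and NK markers to 23848 to 24655 with KU55933, against 23862 to 24223 without it. The T cell markers summed to 1263 to 1406 with KU55933, against 1085 to 1120 without it, with none of 8 called. Markers of mast cells, basophils and eosinophils summed to 457 to 495 with KU55933, against 832 to 851 without it, with none of 6 called. The brightest of them, Mcpt8, had 8.28 and 8.32 with KU55933, against 9.29 and 9.32 without it. Of the 8 in the sum, 5 were under the array median in untreated day 9 cells. Single markers called were Ly6g of the neutrophil list at 1.77, Bst2 and Itgax of the dendritic cell list at 0.67 and -1.02, and Lyz2 of the macrophage list at -0.68. Ly6g was under the array median on both untreated arrays, at 3.54 and 3.48, so the size of its difference is uncertain. The part of these markers in the lipid gene differences was not tested.

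KU55933 cells were also set against the day 0 and day 4 arrays. Against day 0, 29 listed genes were higher and 3 lower, where 59.1% of all tested genes were called, 37.3% higher and 21.9% lower. Of genes called, 63.0% were higher as deposited and 43.3% after centring, under which 27 listed genes were higher and 3 lower. Hmgcs1 stood 4.45 ± 0.11 above day 0, Msmo1 4.24 ± 0.17 and Cyp51 4.17 ± 0.11. Insig1, with 8.81 and 8.73 in KU55933 cells against 8.22 and 8.10 at day 0, was 1.52-fold higher (adjusted p = 0.00243), and Fasn was 0.47 ± 0.15 higher (adjusted p = 0.0243). After quantile normalization Insig1 was not called at 0.13, and Fasn had a difference of -0.00194 (adjusted p = 0.992). The Fasn call was also lost after centring (0.18, adjusted p = 0.277) and without day 0 replicate 1 (adjusted p = 0.0944) or KU55933 replicate 1 (adjusted p = 0.142). Abca1 was 2.60-fold and Mylip 1.63-fold lower, and Nr1h3, under the array median on both KU55933 arrays, was at least 1.65-fold lower. Beside these genes, 11 of 14 macrophage and monocyte markers, all 7 B cell markers and all 5 megakaryocyte markers tested were lower in KU55933 cells than at day 0, and 5 of 17 dividing-cell markers were higher and 1 lower. NK markers summed to 23848 to 24655 with KU55933, against 12356 to 13461 at day 0, with 5 of 12 higher and 4 lower. The part of all these markers was not tested.

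Against day 4, 10 listed genes were lower, 5 higher and 17 not called in KU55933 cells, where 26.0% of all tested genes were called, 13.7% lower and 12.3% higher. Fasn was 2.00-fold lower, with 8.55 and 8.34 in KU55933 cells against 9.57 and 9.33 at day 4. Pmvk was 1.98-fold and Aacs 1.83-fold lower, and Insig1 differed by -0.72 ± 0.12. Abcg1 was 6.0-fold higher, Mylip 2.79-fold and Abca1 1.68-fold. Acss2 had 7.65 and 7.67 in KU55933 cells, against 6.74 and 6.44 at day 4, and was 2.10-fold higher (adjusted p = 0.00997), a call lost without day 4 replicate 2 or either KU55933 array (adjusted p = 0.0569 to 0.0796). Hmgcs1 differed from day 4 by 0.10, with an interval of -0.15 to 0.36, Fdft1 by -0.01 with an interval of -0.47 to 0.45, and Sqle by 0.03 with an interval of -0.26 to 0.32. All 17 dividing-cell markers were lower than at day 4, with a median of -3.14, as were 13 of 14 macrophage and monocyte markers, with a median of -2.53, 11 of 12 neutrophil markers and 6 of 7 B cell markers. Their part was not tested.

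Taken by group means, 18 of the 32 genes were highest at day 4, 10 at day 9 with KU55933, 1 at day 9 and 3 at day 0. Of all tested genes 26.8%, 19.6%, 18.6% and 35.1% were highest in these groups. The 3 highest at day 0 were Nr1h3, Abca1 and Mylip, and the one highest at day 9 was Insig2. Day 0 was lowest for 26 of the 32, against 44.5% of all tested genes.

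**Figure D4:**
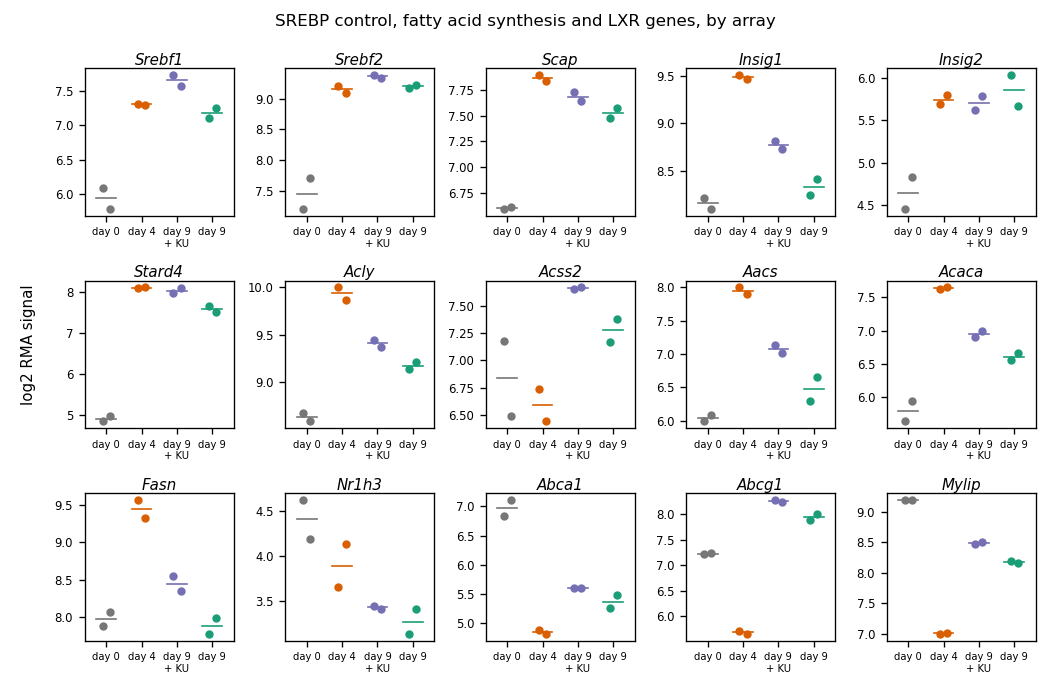
Log2 RMA signal (vertical axis, its own range in each panel) of the 15 tested genes of SREBP control, fatty acid synthesis and the LXR group on the 8 arrays, with 2 points per group and a line at their mean, in the order day 0, day 4, day 9 with KU55933 and day 9. Fasn falls back at day 9 to 7.77 and 7.98, Abcg1 and Mylip dip at day 4, and Insig1 with KU55933 (8.81 and 8.73) lies above untreated day 9 (8.25 and 8.42).

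Genes around the pathway were read from lists of the same kind. Of 16 tested genes of SREBP escort, cleavage and turnover, 13 rose at day 4 and none fell, where 37.5% of all tested genes rose and 22.4% fell. Sec24d and Sec23b, coat proteins of the vesicles that leave the endoplasmic reticulum, rose by 2.81 ± 0.19 and 2.32 ± 0.10, and Sar1b, their GTPase, by 2.01 ± 0.14. Of 13 genes that use isoprenoids for prenylation, dolichol and ubiquinone, 11 rose and 1 fell. Zmpste24, a protease of prenylated proteins, rose by 1.93 ± 0.16, Nus1, a subunit of the dolichol synthase, by 1.51 ± 0.12, and Fnta, a prenyltransferase subunit, by 1.41 ± 0.12. Sterol transport and storage genes were mixed, with 6 of 17 higher and 5 lower, near those shares. Npc1, which exports cholesterol from lysosomes, rose by 1.83 ± 0.11. Lrp1, a lipoprotein receptor, and Cyp27a1, a sterol hydroxylase, fell by 2.59 and 2.57 on the log2 scale. Cyp27a1 had 3.73 and 3.52 on the day 4 arrays, near their median of 3.67, so the size of its fall is uncertain. Of 22 genes of citrate, NADPH and glycerolipid supply 13 rose and 5 fell, with Acsl5, an acyl-CoA synthetase, at 2.50 ± 0.11, Lpcat3, a phospholipid acyltransferase, at 2.25 ± 0.13, and Mlx, a partner of carbohydrate-response transcription factors, at 2.23 ± 0.16.

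At day 9 against day 4, where 12.2% of all tested genes were higher and 15.6% lower, the called genes were 1 higher and 3 lower of 16 on the escort list, 0 and 1 of 13 on the isoprenoid list, 5 and 6 of 17 on the transport list and 1 and 7 of 22 on the supply list. With KU55933 at day 9, where 0.986% of all tested genes were called, the one gene called on the 4 lists was Me1, the cytosolic malic enzyme that yields NADPH. Me1 had 4.89 and 5.34 in KU55933 cells, against 4.05 and 3.98 untreated, a log2 difference of 1.10 ± 0.17 (adjusted p = 0.0356).

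Not every listed gene could be valued. Acat2, an acetoacetyl-CoA thiolase, and Nr1h2, which encodes LXR-beta, had no cluster under their names in the annotation used. The clusters of Idi1, the isopentenyl diphosphate isomerase, and Acsl3, an acyl-CoA synthetase, also name another gene, and neither was analysed here. Acacb, the mitochondrial acetyl-CoA carboxylase, was under the array median on all 8 arrays, between 3.07 and 3.56, and was not tested. In the authors' deposited table of group averages and analysis of variance over all conditions 30 listed genes appear. Of these 29 have a false discovery rate p-value below 0.05, the exception being Tm7sf2 at 0.055 in that table. The share of all 11036 clusters of that table below 0.05 was not counted, so the 29 are no result about the listed genes.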

How the data were processed

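Per the submitters' processing notes, the authors summarised the arrays by RMA and used the Transcriptome Analysis Console. The main deposited table holds log2 signals for 41345 transcript clusters. Tool versions and the genome build: not given in the sources used here. A second table, deposited by the authors for 11036 clusters, lists average log2 signals by group beside a p-value from ANOVA and one adjusted for false discovery, per the file headers. It served as a description, and its averages differed from the array means by at most 0.00491.

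In the platform annotation supplied, 23521 clusters name 1 symbol, 1820 several and 16004 none. The brightest cluster naming a gene alone stood for that gene. Genes at or above the array median (percentile 50) on at least 2 arrays were tested. The model had the 4 groups as its terms and no covariate, and was fitted to the 8 arrays together (limma 3.58.1, R 4.3.3, with 4 residual and 3.69 prior degrees of freedom). P-values were adjusted by Benjamini-Hochberg over 13998 genes within each of 6 comparisons, some of which share arrays. For a gene under the array median on every array of a group, a fold is given as a bound. Precision is limited by the number of arrays. Marker sums add linear signals.

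The listed genes, the surrounding lists and the marker lists were chosen with earlier results of these data known. All listed genes are named, and of each surrounding list at most the 3 called genes with the largest change at day 4 and 2 with KU55933. Same-numbered replicates did not deviate together, with correlations of -0.033 to 0.053. The code was tested on simulated data. Alternatives covered the filter on dim genes, centring, quantile normalization, a variance trend, the mean of a gene's clusters, fewer arrays, a replicate block and a 2-fold minimum. The array median as a floor was added after seeing the data.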

Additional observations from a re-analysis of the deposited data

How the results depend on the processing

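Counts of listed genes in each comparison stayed within 1.5 times the value given above unless named here. At day 4 against day 0, the 3 lower genes became 5 after centring, and leaving out 1 array gave 3 to 5 (5 without day 0 replicate 2). At day 9 against day 4, the 3 higher genes became 5 with a dim filter at percentile 75 and 5 after centring, with 2 to 4 when 1 array was left out, and the 18 lower genes became 7 at a 2-fold minimum and 12 to 20 when 1 array was left out. For KU55933 against day 9, the 1 higher gene became 0 without the dim filter, 3 at percentile 75, 0 after centring, 0 after quantile normalization, 7 with a variance trend, 0 with only the 4 arrays compared, 0 with the replicate block, 0 at a 2-fold minimum and 3 with the array median as a floor. Leaving out 1 array gave 0 to 4, with 4 without either day 0 array and 0 without any one of the others. Against day 4, KU55933 cells had 3 higher and 1 lower gene at a 2-fold minimum, with 3 to 7 higher and 6 to 13 lower when 1 array was left out, 3 higher without day 4 replicate 2 or either KU55933 array, and 6 lower without day 4 replicate 1 or KU55933 replicate 1. Against day 0 they had 1 lower gene at a 2-fold minimum. Of the called differences 1 changed sign, that of Fasn for KU55933 against day 0, at -0.00194 after quantile normalization. A further 14 differences changed sign under at least 1 alternative and were called neither as given nor there, Insig1 at day 9 against day 0 (-0.0549 after centring) and Insig2 for KU55933 against day 9 (0.037 without day 9 replicate 1) among them. The cause of these shifts was not tested. Under all alternatives but the 2-fold minimum, calls held for 29 of 30 genes at day 4 against day 0, 23 of 29 at day 9 against day 0, 14 of 21 at day 9 against day 4, 29 of 32 for KU55933 against day 0, 8 of 15 against day 4 and 0 of 1 against day 9. The replicate numbers share no stated source, and with the replicate as a block 17 listed genes were lower at day 9 than at day 4. Groups of 2 arrays limit every result, and Nr1h3 and Acacb lay near or under the array median.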
